A study of Mus musculus with 4 samples.

Results

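Wnt signalling was followed through 40 listed genes for its ligands, receptors, secreted inhibitors and intracellular effectors, of which 39 were measured, among 19938 genes in all; Tcf7 was not analysed here. Members were found by gene symbol in the platform annotation, and a gene's brightest feature on average (a feature is a set of probes summarised to 1 value) stood for it. Of the 39 measured members, 38 had 1 feature and Wnt4 had 2, and 0 of the features used carried a second symbol. The cells were MC3T3-E1, an immortalised mouse line of calvarial pre-osteoblasts derived from C57BL/6, profiled on Affymetrix arrays. The 4 groups were citalopram at day 7, citalopram at day 3, untreated control at day 7 and untreated control at day 3, with 1 array per group. Citalopram, a selective serotonin reuptake inhibitor, was added at 0.0001 mol per litre to the proliferation medium that all groups received. The study set treated against untreated cells to ask how the drug bears on bone formation.

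In canonical Wnt signalling, a secreted Wnt protein binds a Frizzled receptor together with LRP5 or LRP6, the destruction complex of Axin, APC and the kinase GSK3 is held back, and beta-catenin enters the nucleus, where it acts with TCF and LEF proteins. R-spondins bind LGR receptors and protect Frizzled proteins from removal at the cell surface, while Dickkopf, SFRP and WIF proteins are secreted inhibitors. In osteoblasts the pathway is known for promoting bone formation, and its co-receptors and inhibitors are known from inherited disorders of bone mass.

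The deposited values were log2 signals, and every difference below is a difference of log2 values. A signal depends on the probes, so signals were compared between arrays and not between genes. A gene was above the floor in a comparison if the higher of its 2 signals reached the floor of the array it came from. The floor of an array was the value below which 40% of genes lay on it, between 5.95 and 6.01 on the 4 arrays. The floor was reached on all 4 arrays by 28 members, on some arrays by Rspo3, Wnt16, Dkk2 and Nkd2, and on 0 arrays by Rspo1, Wnt11, Lgr5, Dkk1, Sfrp1, Sfrp4 and Wif1. As no group had a replicate, a difference between 2 arrays has no error of its own, and the middle 95% of differences over all genes above the floor is given as its scale. The tests came from limma, fitted to all 4 arrays with 1 treatment term and 1 day term for the 12415 genes at the floor on at least 1 array, with Benjamini-Hochberg adjustment over all of them. In that fit the days stood in for replicates of a treatment and the treatments for replicates of a day, with 1 residual degree of freedom per gene. Separate cultures are not stated and no group had a replicate, so p-values measure no spread between replicates. A gene's residual came from the change in its citalopram difference between the days, which may be technical. A citalopram difference that truly changed between days would also count as error. Limma further drew on the spread of all genes, with 8.15 degrees of freedom in total. In bulk RNA a larger share of cells with a transcript cannot be told apart from more of it per cell.

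The labelled cell type was checked against its markers. Of 10 osteoblast lineage markers, 7 were measured and 5 of them, Sparc, Col1a1, Col1a2, Dlx5 and Sp7, were above the floor on all 4 arrays, whereas Alpl was at the floor on 2 arrays and Ibsp on 0. The mean of the 7 was 9.79 with citalopram and 9.78 in control at day 7, and 9.80 with citalopram and 9.60 in control at day 3. All 5 endothelial markers were below the floor on every array, as were 4 of 5 adipocyte, 3 of 5 muscle, 3 of 5 macrophage and 2 of 5 chondrocyte markers. Lyz2, a lysozyme gene on the macrophage list, gave 9.07 with citalopram and 8.60 in control at day 7. At day 3 it gave 9.50 and 8.93. Cd68, also on that list, gave 7.19 with citalopram and 7.04 in control at day 7, and 7.01 and 7.02 at day 3. The other macrophage genes, Ptprc, Adgre1 and Csf1r, stayed below the floor. Sox9 and Col2a1, on the chondrocyte list, and Des, on the muscle list, were above the floor on all arrays. The part of these transcripts in the results below was not tested.

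**Figure D1:**
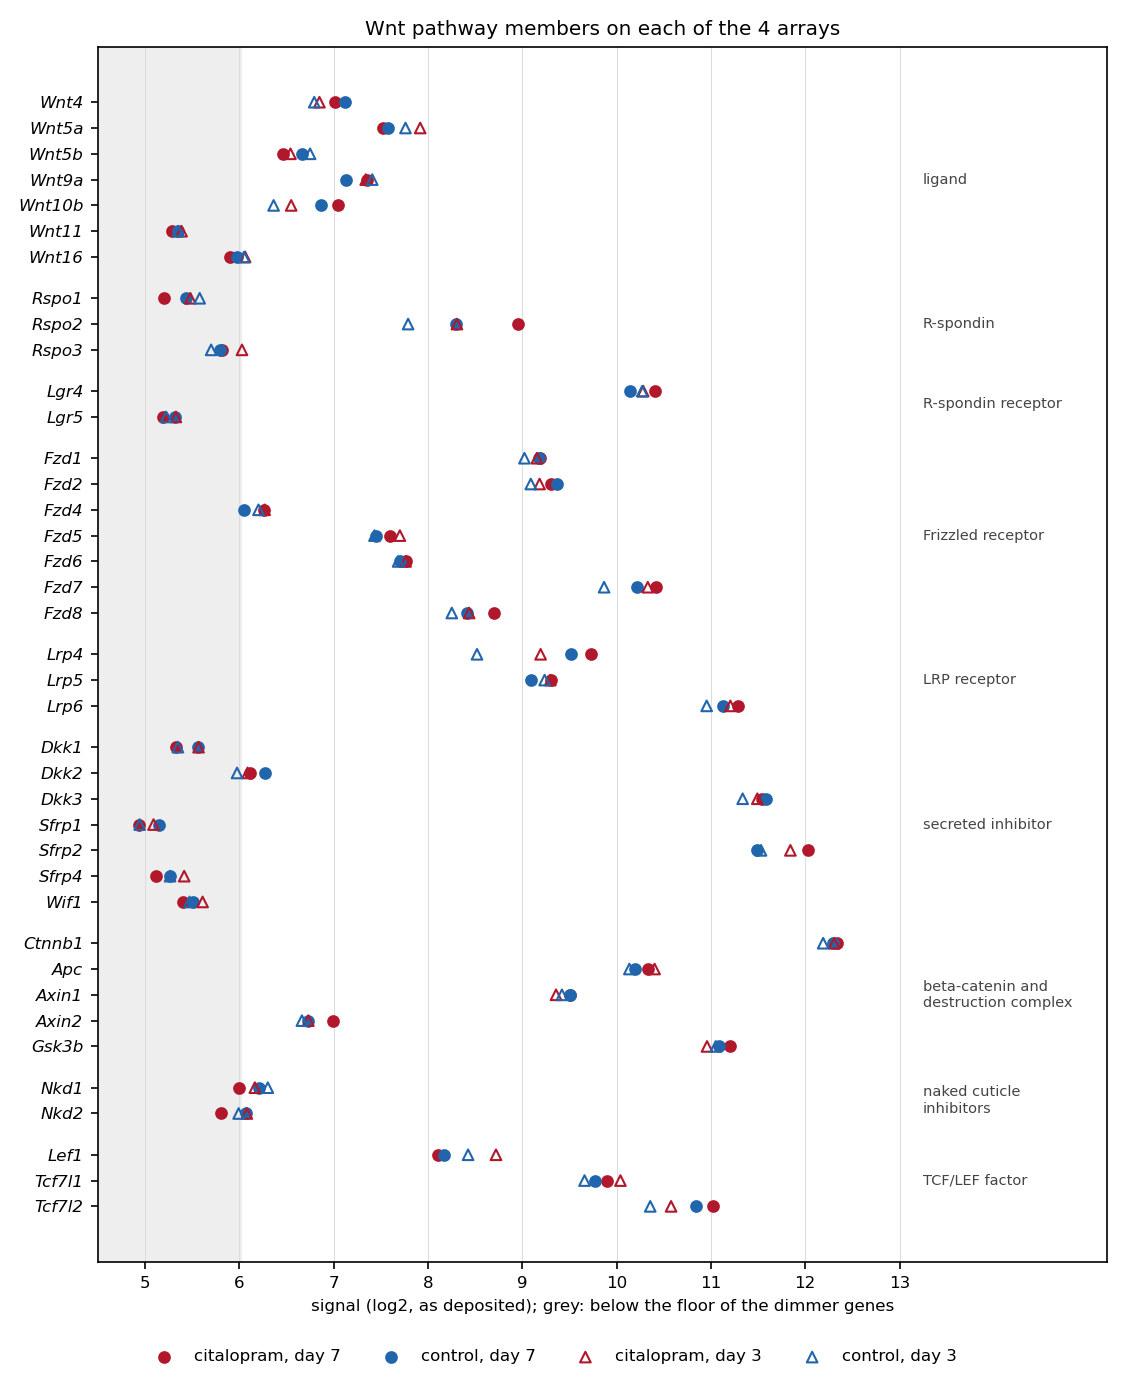
Deposited log2 signal of each of the 39 measured members (rows, grouped by role) on the 4 arrays; red is citalopram, blue is control, filled circles are day 7 and open triangles day 3, and grey marks signals below the highest floor of 6.01. The 4 points of Lrp4 and Rspo2 lie farthest apart, spanning 1.21 and 1.17 log2 units.

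The promoters of 2 members whose day differences had opposite signs, Wnt10b and Lef1, and the window of Wnt5b that holds a TCF/LEF-type match are shown because TCF and LEF proteins are the nuclear end of the pathway. RefSeq windows of 300 bases (250 before to 50 after a gene start, build GRCm38.p6) were matched by symbol for 24 of the 39 members, 32 windows in all; Lrp4 and Rspo2 are named only. Each window was searched on both strands for CTTTGAT and for CTTTGAA, which share their first 6 letters, and matches are in capitals.
Wnt10b, chr15:98778101-98778400, minus strand: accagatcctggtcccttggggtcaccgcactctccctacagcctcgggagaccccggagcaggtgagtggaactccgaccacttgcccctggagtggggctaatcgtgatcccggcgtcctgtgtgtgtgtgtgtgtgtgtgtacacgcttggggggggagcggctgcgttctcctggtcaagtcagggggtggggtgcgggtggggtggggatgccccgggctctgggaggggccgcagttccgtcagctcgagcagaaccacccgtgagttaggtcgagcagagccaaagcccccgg
Lef1, chr3:131110047-131110346, plus strand: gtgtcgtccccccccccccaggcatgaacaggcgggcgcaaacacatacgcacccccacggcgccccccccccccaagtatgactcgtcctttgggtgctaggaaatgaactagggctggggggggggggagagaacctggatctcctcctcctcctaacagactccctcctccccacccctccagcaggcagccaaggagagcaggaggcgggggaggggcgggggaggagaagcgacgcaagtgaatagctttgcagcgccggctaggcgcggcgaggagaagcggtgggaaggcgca
Wnt5b, chr6:119449337-119449636, minus strand: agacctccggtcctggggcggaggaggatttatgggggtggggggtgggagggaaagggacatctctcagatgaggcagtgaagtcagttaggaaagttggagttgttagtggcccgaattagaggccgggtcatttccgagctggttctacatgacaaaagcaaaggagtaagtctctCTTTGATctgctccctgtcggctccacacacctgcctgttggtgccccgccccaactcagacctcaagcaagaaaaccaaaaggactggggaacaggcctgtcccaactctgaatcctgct

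CTTTGAT stood in 2 of the 32 member windows, in Wnt5b (from position 180 of the window, counted from its 5′ end) and in Wnt11, and in 3.73% of all 32851 windows. CTTTGAA stood in 1 member window, that of Dkk1, and in 5.14% of all windows. Wnt5b and Wnt11 also had other windows, at other gene starts, which held neither. The windows of Wnt10b and Lef1 held neither, which says only that these letters are not in these bases. Of the members with a match, Wnt11 and Dkk1 were below the floor on every array.

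Citalopram-treated cells had higher signals than control for the R-spondin gene Rspo2, the LRP receptor gene Lrp4, the secreted inhibitor gene Sfrp2 and the Frizzled gene Fzd7 at both days, with mean differences of 0.59, 0.45, 0.43 and 0.33. None passed limma's adjusted threshold on the deposited values. Of all 12415 genes 0 (0%) were called higher and 0 (0%) lower, whereas before adjustment 661 higher and 458 lower genes had a p under 0.05. Among the 32 members in the fit 4 were higher and 0 lower by that measure, namely the 4 genes above.

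Rspo2 encodes R-spondin 2, a secreted agonist that binds LGR receptors. Its signal was 8.95 at day 7 and 8.31 at day 3 with citalopram, against 8.29 at day 7 and 7.79 at day 3 in control. The treated array was the higher at each day, and treated cells at day 3 were within 0.1 of control cells at day 7. The differences were 0.66 at day 7 (1.58-fold), which 36 of 12167 genes exceeded, and 0.52 at day 3 (1.43-fold), which 108 of 12196 exceeded. Over both days limma gave 0.59 (95% interval 0.35 to 0.83) with an adjusted p of 0.312. Rspo2 was the only member called for citalopram under another scaling, with limma's adjusted p at 0.0137 after quantile normalization and 0.0416 after cyclic loess, against a range of 0.0137 to 1 over the alternatives. The related Rspo3 gave 5.81 at day 7 and 6.03 at day 3 with citalopram, against 5.80 at day 7 and 5.70 at day 3 in control, and reached the floor on the treated day 3 array alone. Rspo1 lay below the floor throughout.

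Lrp4 encodes a receptor of the LDL receptor family that binds the Wnt inhibitor sclerostin. Its signal was 9.73 at day 7 and 9.19 at day 3 with citalopram, against 9.51 at day 7 and 8.52 at day 3 in control. The treated array was the higher at each day, and control at day 3 was the lowest of the 4. The difference of 0.22 at day 7 lay inside the middle 95% of genes at that day (-0.44 to 0.42), and the difference of 0.67 at day 3 (1.60-fold) lay outside it (-0.33 to 0.40). Limma gave 0.45 over both days (95% interval 0.15 to 0.75, adjusted p 0.391). The Wnt co-receptor genes Lrp5 and Lrp6 were also higher at each day, by 0.22 at day 7 and 0.06 at day 3 for Lrp5 and by 0.15 and 0.25 for Lrp6, all inside those ranges. The Lrp6 signals were 11.29 at day 7 and 11.21 at day 3 with citalopram, against 11.13 at day 7 and 10.95 at day 3 in control.

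Of the 7 Frizzled genes, which encode the Wnt receptors, treated cells had the higher signal for 6 at day 7 (median 0.15) and for 7 at day 3 (median 0.13), beside 51.3% and 57.7% of all genes above the floor. Fzd7 had signals of 10.41 at day 7 and 10.33 at day 3 with citalopram, against 10.22 at day 7 and 9.87 at day 3 in control. The 2 treated arrays were above both controls, and the difference was 0.19 at day 7 and 0.46 at day 3, the second outside the middle 95% of genes. Limma gave 0.33 for Fzd7 over both days (95% interval 0.07 to 0.59, adjusted p 0.435). Fzd8 gave 8.70 at day 7 and 8.44 at day 3 with citalopram, against 8.41 at day 7 and 8.25 at day 3 in control. Its differences were 0.29 and 0.18. The remaining differences ran from -0.07 (Fzd2) to 0.21 (Fzd4) at day 7 and from 0.07 (Fzd4) to 0.27 (Fzd5) at day 3, and those of Fzd1 and Fzd6 at day 7 changed sign after quantile normalization, with Fzd1 also changing after cyclic loess. Lgr4, an R-spondin receptor gene, gave 10.41 at day 7 and 10.28 at day 3 with citalopram, against 10.14 at day 7 and 10.27 at day 3 in control. Its difference was 0.26 at day 7 and 0.01 at day 3.

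Among the 7 member genes that encode Wnt ligands, the treated signal was the higher for 2 at day 7 and 5 at day 3, beside 45% and 59.4% of all genes. Their differences ran from -0.20 to 0.21 at day 7 and from -0.21 to 0.19 at day 3, inside the middle 95% of genes. Wnt5b, which encodes a ligand known mainly for beta-catenin-independent signalling, was lower with citalopram at each day. Its signals were 6.47 at day 7 and 6.54 at day 3 with citalopram, against 6.66 at day 7 and 6.75 at day 3 in control. Wnt10b, a ligand that promotes osteoblast over adipocyte formation in mice, differed by 0.19 at each day. For Wnt5a, Wnt4 and Wnt9a the sign differed between the days, with values of -0.04, -0.11 and 0.21 at day 7 and 0.16, 0.05 and -0.07 at day 3.

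Among the secreted inhibitors, Sfrp2, a secreted Frizzled-related protein, gave 12.03 at day 7 and 11.84 at day 3 with citalopram, against 11.49 at day 7 and 11.53 at day 3 in control. Both treated arrays were above both controls. The difference was 0.54 at day 7 (1.45-fold), outside the middle 95% of genes, and 0.31 at day 3, inside it. Limma gave 0.43 over both days (95% interval 0.17 to 0.68, adjusted p 0.352). Dkk3, a divergent Dickkopf family member, gave 11.55 at day 7 and 11.49 at day 3 with citalopram, against 11.59 at day 7 and 11.34 at day 3 in control, with control at day 7 the highest. Dkk2 lay near the floor, between 5.97 and 6.27. Dkk1, Sfrp1, Sfrp4 and Wif1, all below the floor on every array, ranged from 4.93 to 5.61, and each was lower with citalopram at day 7 and higher at day 3. Among all genes below the floor at each day, 35.2% of them had the higher signal in treated cells at day 7, and 62.1% at day 3.

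Inside the cell, the differences for beta-catenin and its destruction complex ran from -0.00092 to 0.27 at day 7 and from -0.09 to 0.27 at day 3, inside the middle 95% of genes. Ctnnb1, the beta-catenin gene, gave 12.33 at day 7 and 12.31 at day 3 with citalopram, against 12.29 at day 7 and 12.19 at day 3 in control. Gsk3b, the gene of the kinase that marks beta-catenin for destruction, gave 11.20 at day 7 and 10.96 at day 3 with citalopram, against 11.09 at day 7 and 11.05 at day 3 in control, so the sign of its difference changed. The differences for the scaffold genes Apc, Axin1 and Axin2 were 0.14, -0.00092 and 0.27 at day 7 and 0.27, -0.06 and 0.07 at day 3. Axin2 and Nkd1 are feedback inhibitors that beta-catenin signalling is known to induce. Their differences had opposite signs. Axin2 gave 6.99 at day 7 and 6.73 at day 3 with citalopram, against 6.73 at day 7 and 6.66 at day 3 in control, whereas Nkd1 gave 5.99 at day 7 and 6.16 at day 3 with citalopram, against 6.20 at day 7 and 6.30 at day 3 in control. Limma's adjusted p for citalopram was 0.738 for Axin2 and 0.707 for Nkd1. Nkd1 reached the floor on all 4 arrays but lay near it, between 5.99 and 6.30. Nkd2 also lay near the floor, at 5.81 with citalopram and 6.07 in control at day 7.

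The 3 measured TCF/LEF genes were all higher with citalopram at day 3, where 57.7% of all genes above the floor were. Their differences at day 3 were 0.38 for Tcf7l1, 0.30 for Lef1 and 0.22 for Tcf7l2. At day 7 they were 0.13, -0.06 and 0.18. Tcf7l1, known mainly as a repressor of Wnt targets, gave 9.90 at day 7 and 10.04 at day 3 with citalopram, against 9.77 at day 7 and 9.66 at day 3 in control. Limma's 95% interval for it over both days, -0.0035 to 0.51, includes 0 (adjusted p 0.563).

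As a list, 20 of the 30 members above the floor had a higher signal in treated cells at day 7, where 51.3% of all genes above the floor were, and 27 of 32 at day 3, where 57.7% were. Counted over all 39 measured members, 21 were higher at day 7 and 33 at day 3, against 45% and 59.4% of all genes. The median difference of the 39 was 0.02 at day 7 and 0.13 at day 3, beside -0.02 and 0.03 for all genes; after quantile normalization the day 7 median of the members turned to -0.02. Over the members above the floor it was 0.13 at day 7, beside 0.01 for all genes above the floor. Few members passed 1.5-fold. At day 7 Rspo2 was the 1 member of 30 at least 1.5-fold higher (0.559% of all genes) and 0 were 1.5-fold lower (0.945%). At day 3 Lrp4 was the 1 member of 32 higher (0.500%) and 0 were lower (0.303%). Of 30 members above the floor at both days, 18 were higher at both (31.2% of all genes) and 3, Wnt5b, Axin1 and Nkd1, were lower at both (22.0%); these comparisons share no array. After quantile normalization the number above the floor and higher was 18 at day 7 and 25 at day 3, beside 45% and 54.5% of all genes.

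**Figure D2:**
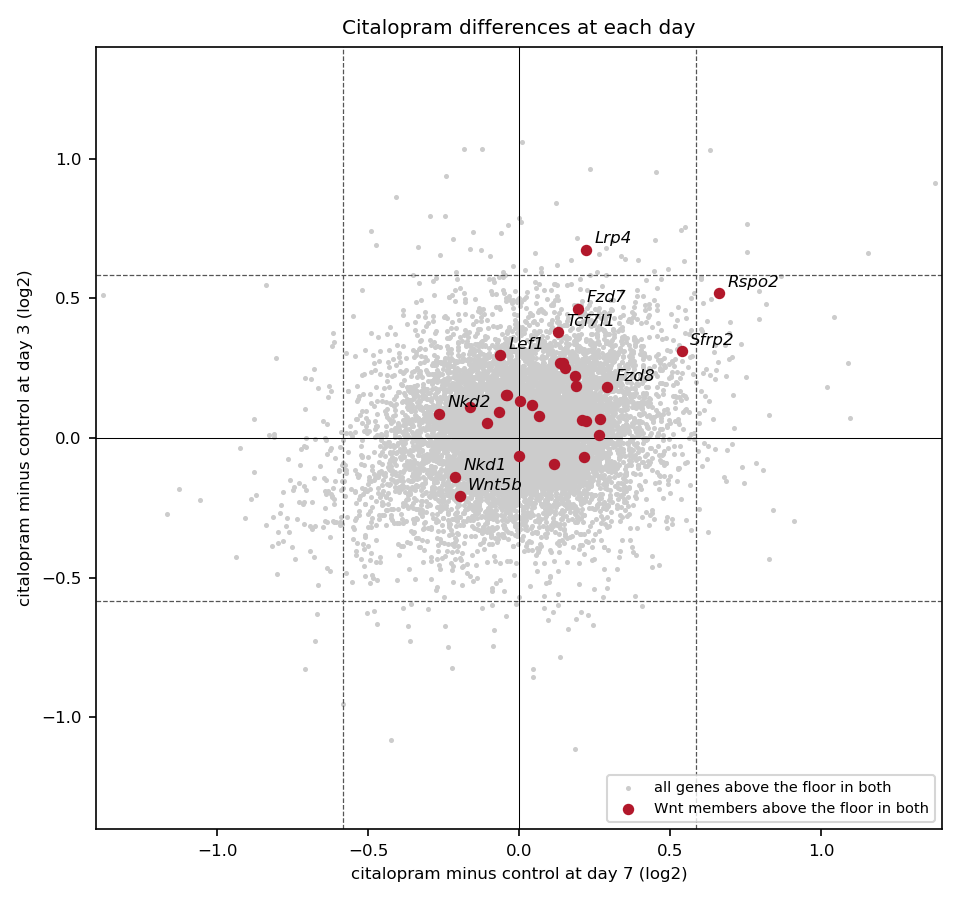
Citalopram minus control (log2) at day 7 on the horizontal axis and at day 3 on the vertical axis, for the 30 members (red) and all 11952 genes (grey) above the floor at both days; dashed lines mark 1.5-fold. Rspo2 lies at 0.66 and 0.52, Lrp4 at 0.22 and 0.67 and Sfrp2 at 0.54 and 0.31, and 18 of the 30 members lie above and to the right of 0.

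At day 7 relative to day 3, the signals of Lrp4, Rspo2 and Wnt10b rose in each treatment. Over both treatments limma called these 3 of the 32 members higher, where 163 of 12415 genes (1.31%) were called higher, and 0 members lower, where 185 genes (1.49%) were. Lrp4 rose by 0.77 (95% interval 0.47 to 1.07, adjusted p 0.0257), by 0.54 with citalopram and 0.99 in control (1.99-fold). Rspo2 rose by 0.58 (95% interval 0.33 to 0.82, adjusted p 0.0348), by 0.65 with citalopram and 0.50 in control. Wnt10b gave 7.05 at day 7 and 6.55 at day 3 with citalopram, and 6.86 at day 7 and 6.36 at day 3 in control. Both day 7 arrays were above both day 3 arrays, and Wnt10b rose by 0.50 (95% interval 0.26 to 0.73, adjusted p 0.0479). After quantile normalization its differences were smaller, at 0.32 with citalopram and 0.39 in control. The 3 calls depended on the fit: with day as the only term limma's adjusted p was 0.166 for Lrp4, 0.308 for Rspo2 and 0.130 for Wnt10b, and without a floor it was 0.05 (just under the threshold), 0.0546 and 0.0702.

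Tcf7l2 gave 11.02 at day 7 and 10.58 at day 3 with citalopram, and 10.84 at day 7 and 10.36 at day 3 in control. It was higher at day 7 by 0.46 (95% interval 0.23 to 0.70) without passing limma's threshold (adjusted p 0.0570). Limma's threshold was passed after quantile normalization (adjusted p 0.0045), after cyclic loess (0.0126) and with the floor at the 60th percentile (0.0195). The alternatives ranged from 0.0045 to 0.157. In that order, these settings called 459 of 12415, 436 of 12416 and 299 of 8297 genes higher for day. The main fit called 163 of 12415 higher. Lef1 ran the other way from Tcf7l2. Its signals were 8.11 at day 7 and 8.72 at day 3 with citalopram, and 8.17 at day 7 and 8.42 at day 3 in control, so the day 7 arrays were both below the day 3 arrays. The difference was -0.61 with citalopram (1.53-fold lower) and -0.25 in control, and limma gave -0.43 (95% interval -0.71 to -0.15, adjusted p 0.0987). Limma's adjusted p for Lef1 was 0.0056 after quantile normalization, 0.0312 after cyclic loess and 0.0395 with the floor at the 60th percentile, over a range of 0.0056 to 0.174. Wnt5a, a ligand of beta-catenin-independent signalling, gave 7.53 at day 7 and 7.92 at day 3 with citalopram, and 7.57 at day 7 and 7.76 at day 3 in control. Limma gave -0.29 for it (adjusted p 0.183; 0.0191 after quantile normalization, over a range of 0.0191 to 0.239).

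None of the remaining members in the fit passed limma's threshold for day on the deposited values. Wnt4, a ligand, was higher at day 7 by 0.17 with citalopram and 0.33 in control on the feature used, and by 0.04 and 0.13 on its second feature. After quantile normalization the sign of the Wnt4 difference with citalopram turned, and limma's day estimate was 0.09, against 0.25 as deposited. Fzd7 was higher at day 7 by 0.08 with citalopram and 0.35 in control. The Frizzled medians were 0.03 with citalopram and 0.16 in control, and those of beta-catenin and the destruction complex 0.14 and 0.06. Sfrp2 differed by 0.19 with citalopram and -0.04 in control. The median of the secreted inhibitors was -0.16 with citalopram and 0.21 in control, a median set by members below or near the floor.

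As a list, 21 of 32 members above the floor were higher at day 7 with citalopram, where 44.2% of all genes were, and 21 of 31 in control, where 47.2% were. After quantile normalization these counts were 16 with citalopram, beside 36% of all genes, and 18 in control, beside 40.4%. With citalopram, Rspo2 was the 1 member at least 1.5-fold higher (2.0% of all genes) and Lef1 the 1 member lower (2.81%). In control, Lrp4 was the 1 member higher (1.16%) and 0 were lower (1.13%). Of 31 members above the floor in both treatments, 17 were higher at day 7 in both (28.2% of all genes) and 6, Wnt5a, Wnt5b, Wnt16, Fzd4, Lef1 and Nkd1, were lower in both (36.7%). The day differences use the same 4 arrays as the citalopram differences, so the values of a gene in both kinds of comparison are not independent.

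**Figure D3:**
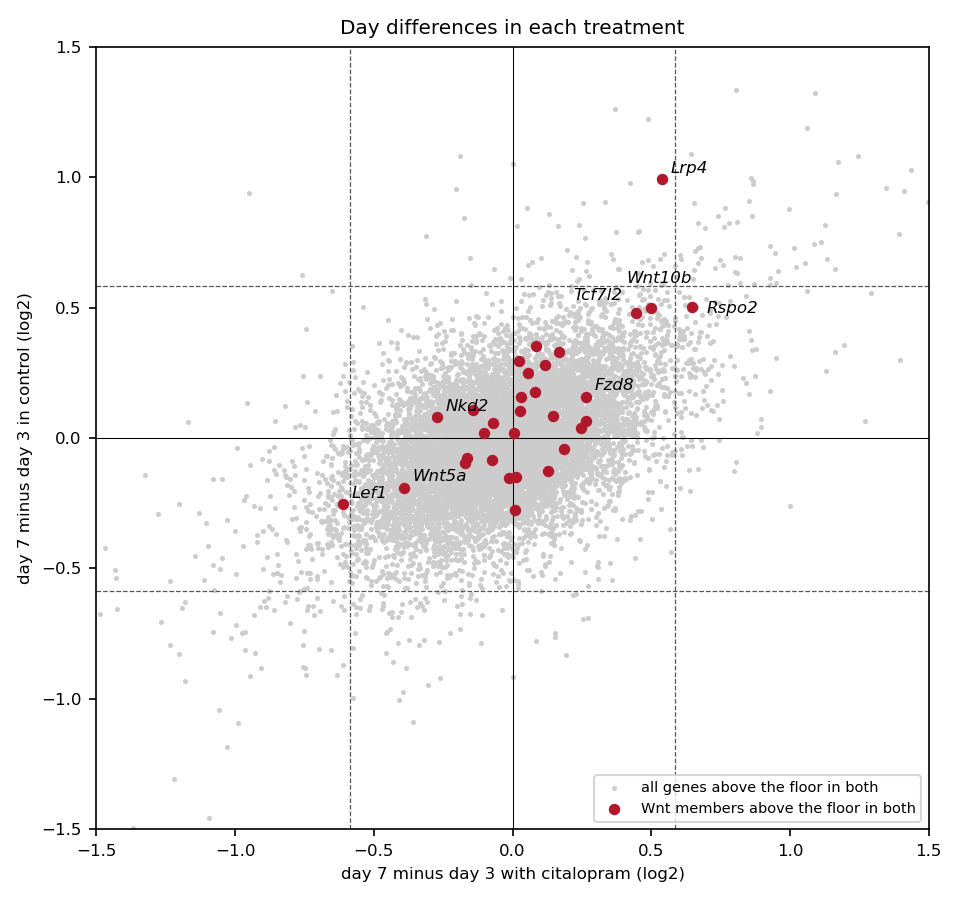
Day 7 minus day 3 (log2) with citalopram on the horizontal axis and in control on the vertical axis, for the 31 members (red) and all 11977 genes (grey) above the floor in both treatments; dashed lines mark 1.5-fold, and 36 genes beyond 1.5 log2 units are not drawn. Lrp4 lies at 0.54 and 0.99, Rspo2 at 0.65 and 0.50, Wnt10b at 0.50 and 0.50 and Lef1 at -0.61 and -0.25.

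**Figure D4:**
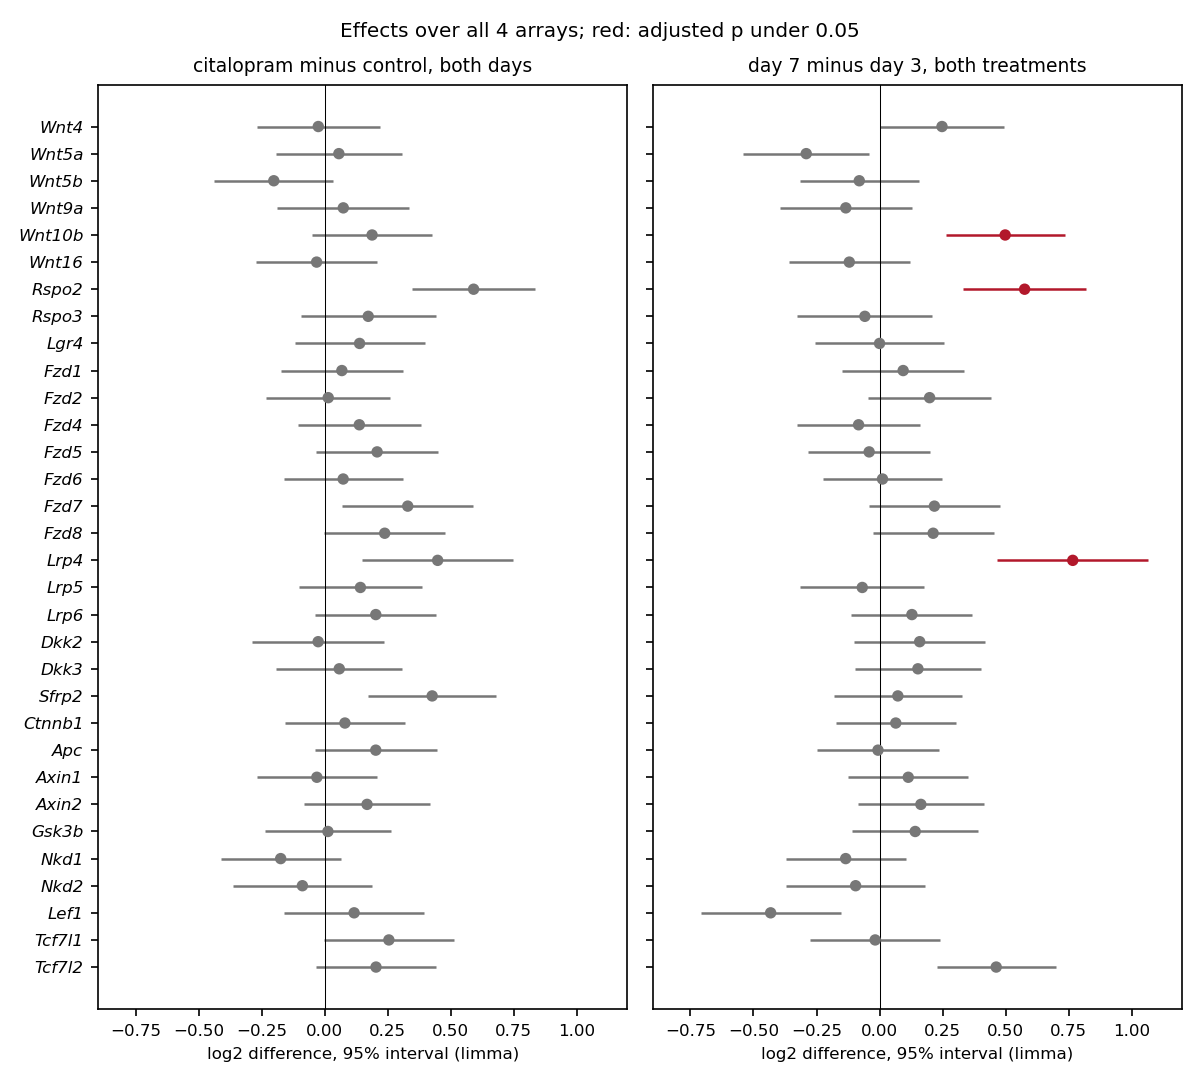
Limma's estimate (point) and 95% interval (line) of the log2 difference for each of the 32 members in the fit, with citalopram minus control over both days on the left and day 7 minus day 3 over both treatments on the right. Only Lrp4, Rspo2 and Wnt10b for day are in red, at an adjusted p under 0.05.

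A further list of 84 Wnt pathway genes that are no members (other ligands and receptors, Dishevelled, casein kinase 1, co-repressors, planar polarity genes and target genes) held 63 genes in the fit. For citalopram limma called 0 of the 63 (smallest adjusted p 0.340), although 8 higher and 0 lower genes had a p under 0.05 before adjustment, beside 661 and 458 of all 12415. For day 7 against day 3 it called Twist1 higher, beside 1.31% of all genes, and Lgr6 and Tnfrsf11b lower, beside 1.49%. The genes past 1.5-fold in any comparison were Lgr6, Dact1, Tnfrsf11b and Cthrc1.

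Lgr6, an R-spondin receptor gene, fell to 9.25 at day 7 with citalopram, against 10.73 at day 3, and to 9.96 at day 7 in control, against 10.63 at day 3. The difference was -1.49 with citalopram (2.81-fold lower) and -0.67 in control (limma's adjusted p 0.0210). At day 7 the treated array was lower than control by 1.64-fold, and at day 3 the difference was 0.10. Of the R-spondin receptor genes, Lgr6 was lower at day 7 in both treatments, Lgr4 differed by 0.13 with citalopram and -0.13 in control, and Lgr5 was below the floor. Tnfrsf11b, the gene of osteoprotegerin, a decoy receptor that restrains osteoclasts and a known beta-catenin target in osteoblasts, gave 10.62 at day 7 and 11.81 at day 3 with citalopram, and 10.86 at day 7 and 11.49 at day 3 in control. It fell by 0.91 over both treatments (limma's adjusted p 0.0175). Twist1, a mesenchymal transcription factor gene, gave 8.96 at day 7 and 8.38 at day 3 with citalopram, and 8.70 at day 7 and 8.27 at day 3 in control. It rose by 0.51 (limma's adjusted p 0.0493, just under the threshold). The calls of Lgr6, Tnfrsf11b and Twist1 are given for the main fit on the deposited values only, without the alternatives given for members. Dact1, which encodes a Dishevelled-binding protein, gave 8.73 at day 7 and 9.61 at day 3 with citalopram, and 8.74 at day 7 and 9.08 at day 3 in control (limma's adjusted p for day 0.0616).

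**Figure D5:**
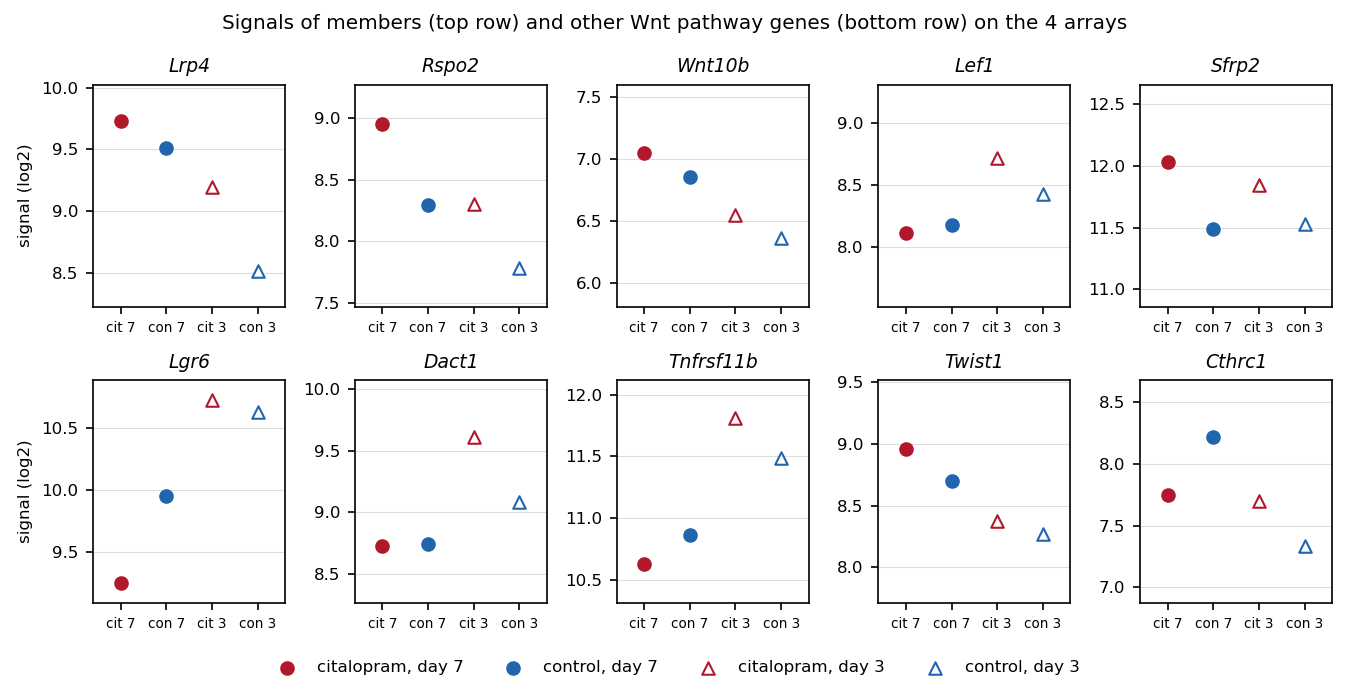
Deposited log2 signal on the 4 arrays (cit, citalopram; con, control; 7 and 3, the day) of 5 members (top row) and 5 other Wnt pathway genes (bottom row), with the same span of log2 units on every vertical axis. Lrp4, Rspo2 and Wnt10b are higher at day 7 than at day 3 in each treatment, Sfrp2 is higher on both citalopram arrays, and Lgr6 is lowest at day 7 with citalopram (9.25).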

How the data were processed

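The deposited values were 1 log2 signal per feature and array, made by the authors and used unchanged; base 2 was inferred from their range (3.90 to 15.5). Per the labels' protocols, 250 ng of total RNA gave biotin-labelled cDNA by a whole-transcript kit, from plates with 3 wells per condition; no source used here says whether wells were pooled. Per the submitters' processing notes the tool was Partek, and the sources used here do not describe background correction, normalization or summarization. Array medians lay between 6.50 and 6.66, so the deposited feature values were not identically distributed on the 4 arrays. This does not show which normalization had been used. Precision is limited by having 4 arrays.

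Of 35556 features, 21789 carried 1 gene symbol, 1621 several and 12146 none. Other genes were taken from features with 1 symbol. Entrez numbers of all 39 measured members matched a RefSeq table (GRCm38.p6). The fits used limma 3.58.1 (R 4.3.3, lmFit, eBayes, two-sided), and other steps used Python 3.11.15, pandas 2.3.3 and numpy 2.4.6. Limma was also run on simulated data with the same noise level for every gene and a day effect only. That setting held no change in the citalopram difference between days, so it cannot show how the fit behaves on these data. Alternatives were quantile normalization, cyclic loess, the mean of a gene's features, other floors, a lower fold threshold, 1 term at a time and eBayes with trend. Members and lists were chosen with earlier results of these data known. Members past 1.5-fold, called by limma or among the 6 brightest are given per array, with others their role calls for; other genes only where past 1.5-fold or called. The list of 84 genes also named 2 by older aliases, which were not counted again.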

Additional observations from a re-analysis of the deposited data

Results flagged for a closer look

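Cthrc1, which encodes a secreted collagen triple helix repeat protein linked to Wnt signalling, was set apart because its citalopram difference had opposite signs at the 2 days, each over 0.32 log2 units in size. The difference was -0.47 at day 7 and 0.36 at day 3. The signals were 7.75 at day 7 and 7.70 at day 3 with citalopram, against 8.22 at day 7 and 7.34 at day 3 in control, so the control arrays differed by 0.88 and the treated arrays by 0.05. The difference between the days was not tested, as every group is a single array. None of the 39 measured members met this criterion above the floor. It was applied only to the members and the further list of 84 genes, so the share of all genes meeting it was not counted.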

How the results depend on the processing

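The fit with treatment and day terms compared treated with control arrays within each day. There were no replicate numbers to pair by, and leaving an array out would leave the fit no residual degree of freedom. Counts of members past 1.5-fold were the same under each scaling, floor and feature choice, except that after quantile normalization 0 members passed it upward for day 7 over day 3 in treated cells. With a lower threshold of 0.32 log2 units the counts for citalopram were 2 higher at day 7 and 5 at day 3. For day 7 over day 3 they were 4 higher and 2 lower in treated cells, and 6 higher in control cells. The share of all genes past this lower threshold was not counted, so these counts cannot be read against it. The median citalopram difference of the members at day 7 was 0.13 over those above the floor. For citalopram, limma called 1 member higher (Rspo2) after quantile normalization and 1 after cyclic loess, beside 52 of 12415 and 18 of 12416 genes called higher. For day, it called 1 member higher without a floor, beside 99 of 19938 genes, and 0 with day as the only term, beside 44 of 12415. It called 2 members lower after quantile normalization (Lef1 and Wnt5a), beside 1085 of 12415 genes. It called 1 lower after cyclic loess, beside 582 of 12416, and 1 with the floor at the 60th percentile, beside 445 of 8297 (Lef1 in both). With a trend, and with the mean of features, Wnt10b lost its call (adjusted p 0.0514 and 0.0549). The cause of these changes was not tested. Quantile normalization changed the sign of 2 members' citalopram difference at day 7 (Fzd1, Fzd6) and of 3 at day 3 (Wnt11, Wnt16, Lgr4), and that of 5 day differences with citalopram (Lrp5, Wnt4, Wnt9a, Fzd6, Dkk2) and 4 in control (Fzd5, Fzd6, Axin2, Wif1). Cyclic loess changed it for Fzd1 at day 7, for the same 3 members at day 3 and for the day differences of Wnt9a and Fzd6 with citalopram.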
